A study of Mus musculus with 15 samples.

Results

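The 6 peroxiredoxin genes of the mouse (Prdx1 to Prdx6) and Srxn1, the gene of sulfiredoxin, were followed in liver. They were chosen by name, and their transcripts in the deposited table were summed per gene symbol. They are 7 of 35540 genes summed, all 7 were in the table, and all 7 passed the filter on low counts among 13916 genes tested. The data are 15 bulk RNA sequencing libraries of mouse liver, 5 in each of 3 genotype groups, and all 3 groups had received a high-fat diet for 8 weeks. WT denotes wild-type mice, C247S KI denotes knock-in mice with the TXNIP C247S change, and KO denotes Txnip knockout mice. The labels give no strain, sex, age or breeding scheme, no cell type in which the knockout applies, and no design of the knock-in allele. Nor do they tie each library to a separate animal, and p-values therefore cover only the spread from library to library, which may be technical.

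Peroxiredoxins are abundant enzymes that reduce hydrogen peroxide, organic peroxides and peroxynitrite with a reactive cysteine. Most of them are then reduced by thioredoxin, the protein to which TXNIP, the thioredoxin-interacting protein, binds through the cysteine replaced in C247S. At high peroxide the reactive cysteine of the typical peroxiredoxins is overoxidised to sulfinic acid and the enzyme is switched off, and sulfiredoxin returns it to the active form. In hepatocytes these enzymes sit beside catalase and glutathione peroxidase 1, and different members serve the cytosol, mitochondria, peroxisomes and secretory pathway.

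The libraries held 18047577 to 23379940 estimated counts, and the members had between 501 (Srxn1) and 17575 (Prdx1) counts in a library, so that the spread between libraries was the main error. Levels are given as counts-per-million (CPM) scaled by TMM factors, and differences are log2 fold changes from edgeR's quasi-likelihood test with Benjamini-Hochberg adjusted p over all genes tested. The targeted gene, Txnip, was reduced and not absent in KO, at 99.0 ± 24.9 CPM against 222 ± 56.2 in WT and 192 ± 65.7 in C247S KI (SD, n = 5 each; edgeR adjusted p = 0.00887 and 0.0182 for KO against each). Since counts are estimated per transcript, a missing exon of Txnip could not be looked for. Hepatocyte markers were high in every library, with 9 of 10 listed genes tested and a summed level of at least 70776 CPM. WT 1, C247S KI 5 and KO 5 lay at the ends of the second principal component (43.9, -35.6 and -38.7), and C247S KI 3 had the lowest TMM factor (0.861) and C247S KI 5 the highest (1.25). Results that rest on these libraries are given with and without them. The numbers that open the sample titles run from 1176 to 1288 in KO and from 3082 to 3154 in the other groups. Their meaning is not given, so whatever they stand for cannot be told apart from the KO genotype.

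Sequence before the start of Srxn1 and Prdx1 is shown first, because sulfiredoxin was the only member called between KO and WT and because these were the only members with a match to the motifs searched. The motifs were the core of the antioxidant response element, bound by NRF2 with a small MAF protein, in the forms TGACNNNGC and TGAGNNNGC, and the AP-1 site TGAGTCA, bound by FOS and JUN proteins. Both strands were searched in the 250 bases before each start, and an AP-1 site can lie inside a core. Of 7 members, 6 had a RefSeq promoter of GRCm38.p6. The Srxn1 sequence covers chr2:152105274-152105515 on the plus strand, the Prdx1 sequence covers chr4:116685349-116685543 on the plus strand, and the Prdx5 sequence, a member without a match, covers chr19:6910107-6910356 on the minus strand. Each stops before the first annotated transcript base, each is written 5′ to 3′ along its gene, and capitals mark the matches.
Srxn1: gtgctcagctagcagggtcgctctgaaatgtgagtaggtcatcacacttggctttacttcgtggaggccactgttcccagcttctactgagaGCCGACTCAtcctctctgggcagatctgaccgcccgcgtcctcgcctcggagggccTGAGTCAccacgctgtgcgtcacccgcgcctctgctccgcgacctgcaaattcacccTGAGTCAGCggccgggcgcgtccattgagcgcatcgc
Prdx1: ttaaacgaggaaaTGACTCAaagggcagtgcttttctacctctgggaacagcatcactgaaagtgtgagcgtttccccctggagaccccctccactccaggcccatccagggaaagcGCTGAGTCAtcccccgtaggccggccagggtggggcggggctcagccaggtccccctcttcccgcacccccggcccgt
Prdx5: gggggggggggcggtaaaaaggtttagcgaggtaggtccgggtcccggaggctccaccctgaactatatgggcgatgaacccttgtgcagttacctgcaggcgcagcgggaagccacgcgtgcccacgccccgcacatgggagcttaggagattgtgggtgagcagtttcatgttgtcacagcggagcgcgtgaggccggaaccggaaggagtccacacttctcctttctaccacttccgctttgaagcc
The Srxn1 sequence held 2 cores of the TGAGNNNGC form, 158 to 150 bases (opposite strand) and 45 to 37 bases (gene strand) before the RefSeq start. It also held 2 AP-1 sites, 102 to 96 and 45 to 39 bases before the start, and the second of these lies within the nearer core. The Prdx1 sequence held 1 core of the TGACNNNGC form at 133 to 125 bases on the opposite strand, with an AP-1 site inside it at 131 to 125 bases, and another AP-1 site at 237 to 231 bases. The windows of Prdx2, Prdx3, Prdx4 and Prdx5 held 0 matches. Among 32851 RefSeq windows of the same length, 23.01% held either core form, 3.18% held at least 2 cores, 4.46% held an AP-1 site and 0.167% held at least 2 AP-1 sites. A match is a description of letters and not a measured binding site.

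**Figure D1:**
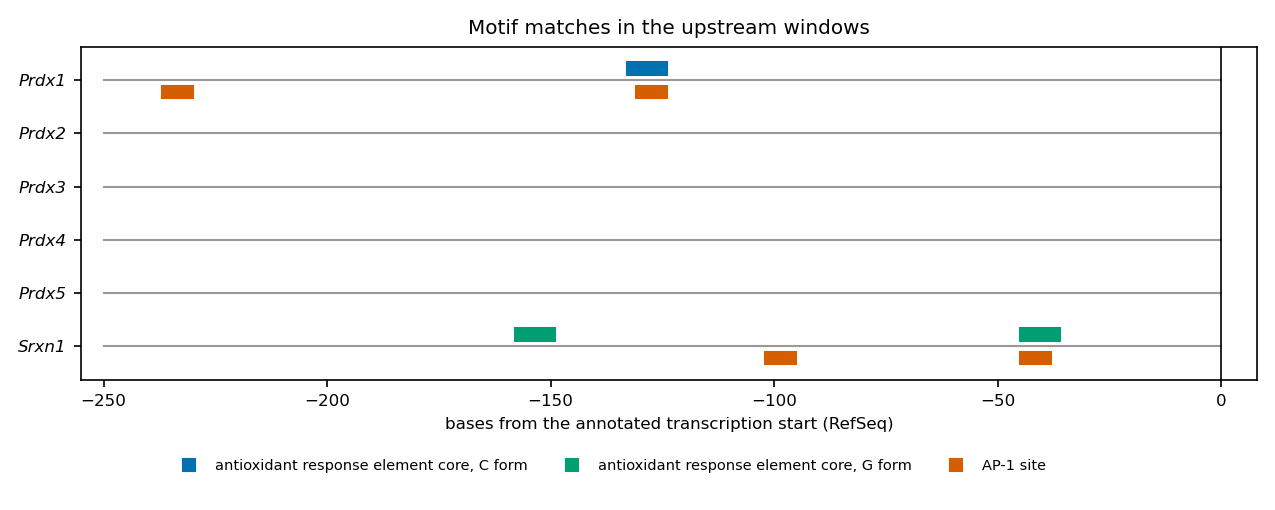
Positions of matches to the antioxidant response element cores (above each line) and the AP-1 site (below it) for the 6 members with a RefSeq promoter, with bases from the start on the horizontal axis and 1 line per gene for the 250 bases searched. Srxn1 and Prdx1 carry matches, and the lines of Prdx2, Prdx3, Prdx4 and Prdx5 are empty.

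Length-scaled levels in transcripts-per-million (TPM) allow the members to be ranked against each other. Prdx1, the cytosolic and nuclear peroxiredoxin, had a median of 629 TPM over the 15 libraries, and Prdx6, the cytosolic 1-Cys enzyme that also acts on phospholipids, had 620 TPM. They ranked 190th and 193rd among all genes by median. These sums include transcripts that are not annotated as protein-coding. Protein-coding transcripts made up only 24.6% to 37.0% of the Prdx6 counts in a library, so the place of Prdx6 is not that of its coding mRNA. Prdx5, found in mitochondria, peroxisomes and cytosol, followed at 320 TPM, then Prdx2, the cytosolic enzyme best known from red cells, at 128 TPM. Prdx3 of the mitochondrial matrix had 86.3 TPM and Prdx4 of the endoplasmic reticulum and secretory pathway had 84.4 TPM, while Srxn1 was far lower at 17.4 TPM. The order of neighbours held in 15 of 15 libraries for Prdx6 over Prdx5, Prdx5 over Prdx2, Prdx2 over Prdx3 and Prdx4 over Srxn1. Prdx1 exceeded Prdx6 in 9 of 15 libraries and Prdx3 exceeded Prdx4 in 11 of 15, so these pairs did not part beyond their spread. Together the 7 members made up 1524 to 2259 TPM of a library.

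**Figure D2:**
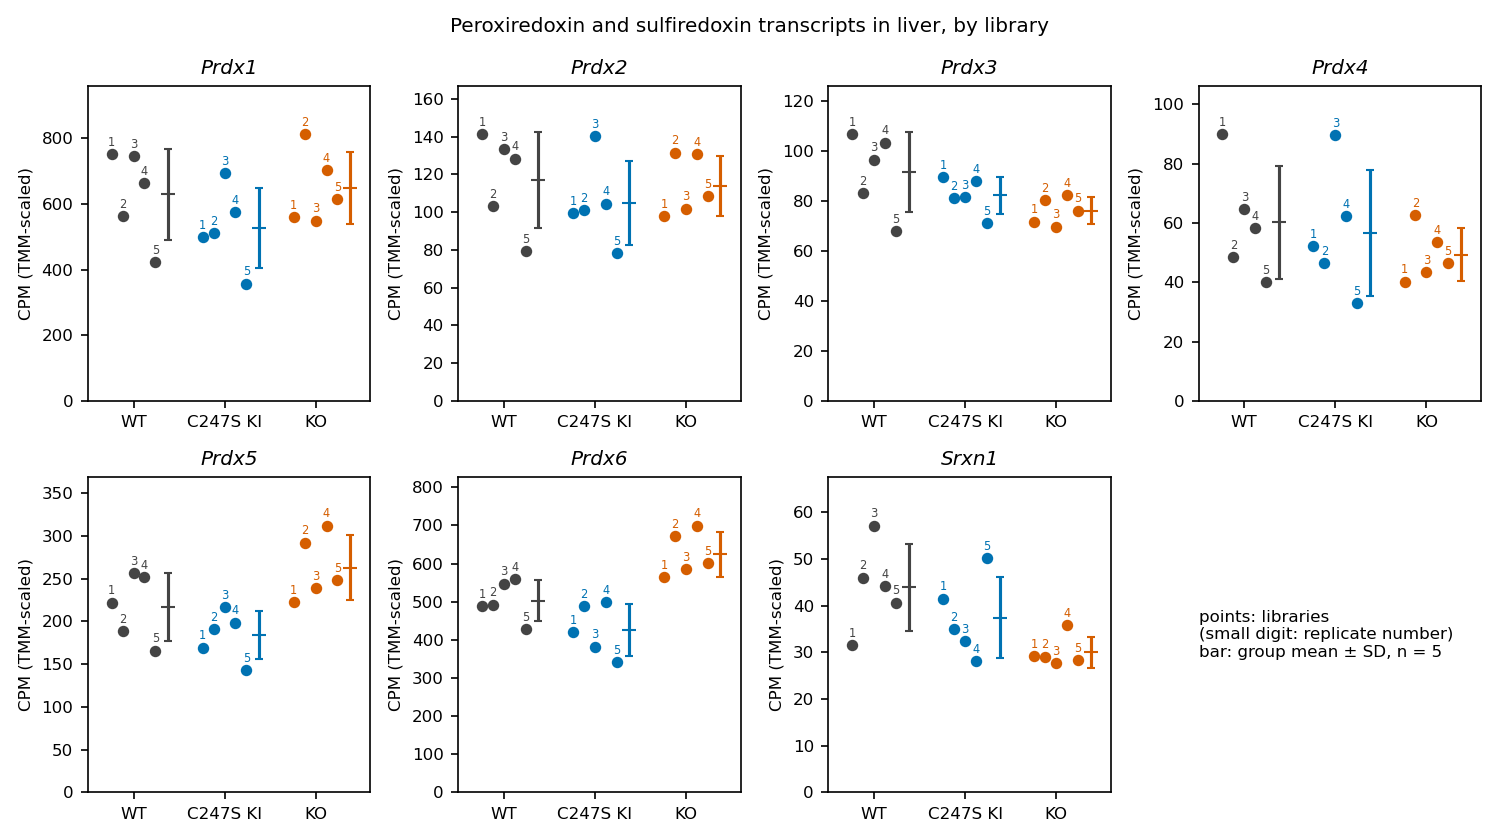
TMM-scaled CPM of the 7 members on linear axes from 0, 1 panel per gene, with 1 point for each of the 15 libraries (small digits are replicate numbers) and a bar for the group mean ± SD (n = 5). The 5 KO points of Prdx5 and Prdx6 lie above all 5 C247S KI points, and the KO points of Srxn1 lie at the lower end, between 27.6 and 35.8 CPM.

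Txnip knockout livers held less sulfiredoxin mRNA than wild-type livers. Srxn1 lies on chromosome 2 from 152105516 to 152111376 (plus strand, GRCm38; ENSMUSG00000032802). Its level was 31.5, 45.9, 57.1, 44.2 and 40.6 CPM in WT libraries 1 to 5. In KO libraries 1 to 5 it was 29.1, 29.0, 27.6, 35.8 and 28.3 CPM. In C247S KI libraries 1 to 5 it was 41.5, 34.9, 32.4, 28.2 and 50.1 CPM. Of the KO libraries 4 lay below every WT library, and KO 4 (35.8) lay above WT 1 (31.5), the lowest WT library. C247S KI spread over both ranges. The mean was 43.9 ± 9.27 CPM in WT and 30.0 ± 3.32 in KO (SD, n = 5 each), and Srxn1 fell by 0.55 on the log2 scale (SE 0.16; edgeR adjusted p = 0.0483; exact two-sided permutation p = 0.0159). The call lay at the edge of the threshold. The direction was the same in every alternative run. In 11 of 15 fits without 1 library, however, edgeR's adjusted p exceeded 0.05 (up to 0.111 without WT 3). The fall was 0.65 (edgeR adjusted p = 0.00506) once C247S KI 3, C247S KI 5 and WT 1 were left out together. Leaving out WT 1, the lowest WT library for Srxn1, raises the WT mean, so that fit adds no support to the call.

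Of the 7 members, Srxn1 alone was called between KO and WT, and it was lower, against 6.75% of all genes called (4.19% lower and 2.56% higher). At an unadjusted p under 0.05 there were 3 of 7 members (Srxn1, Prdx6 and Prdx3), against 23.3% of all genes. The members' median log2 difference was -0.04, beside -0.01 over all genes tested. Prdx6 was next in size among the members. Prdx6 lies on chromosome 1 from 161240112 to 161251219 (minus strand; ENSMUSG00000026701). Its level was 488.4, 491.9, 547.1, 559.8 and 427.5 CPM in WT libraries 1 to 5 and 563.7, 672.4, 584.3, 699.5 and 601.2 CPM in KO libraries 1 to 5. All 5 KO libraries lay above all 5 WT libraries, while 9.6% of all genes did not overlap between these groups, 4.51% with KO above. The exact two-sided permutation p was 0.00794, the smallest that 5 against 5 allows. The log2 difference was 0.31 (SE 0.13), and edgeR's adjusted p over all genes was 0.153, so it did not pass.

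The other 5 peroxiredoxins overlapped between KO and WT in CPM and none passed the test. Prdx3, whose reductant is mitochondrial thioredoxin 2, lay on chromosome 19 from 60864051 to 60874556 (ENSMUSG00000024997) at 91.5 ± 16.0 CPM in WT and 76.1 ± 5.43 in KO, a log2 difference of -0.27 (edgeR adjusted p = 0.186). Prdx4, on the X chromosome from 155323918 to 155340754 (ENSMUSG00000025289), couples peroxide to disulfide formation in secreted proteins. It stood at 60.3 ± 19.0 CPM in WT and 49.2 ± 8.91 in KO (log2 difference -0.29; edgeR adjusted p = 0.499). Prdx5, on chromosome 19 from 6906697 to 6910106 (ENSMUSG00000024953), is an atypical 2-Cys enzyme. It stood at 217 ± 39.5 CPM in WT and 263 ± 37.7 in KO (log2 difference 0.28; edgeR adjusted p = 0.274). Prdx1, on chromosome 4 from 116685544 to 116700822 (ENSMUSG00000028691), stood at 629 ± 138 CPM in WT and 647 ± 110 in KO (log2 difference 0.04, SE 0.19), and Prdx2, on chromosome 8 from 84969587 to 84974834 (ENSMUSG00000005161), stood at 117 ± 25.5 and 114 ± 16.0 (-0.04, SE 0.17). Against the SEs of 0.17 to 0.24 that Prdx1, Prdx2 and Prdx4 carried, differences of this size were not detectable here.

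**Figure D3:**
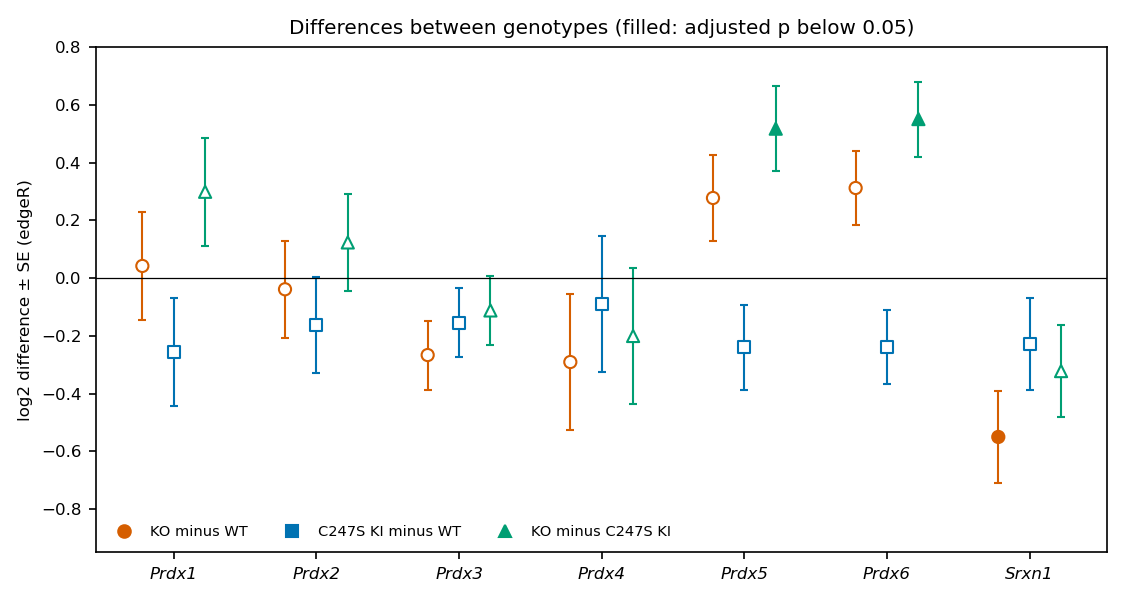
Log2 difference of each member in the 3 comparisons, with bars of ±1 SE from the edgeR fit and filled markers where the adjusted p was below 0.05. Srxn1 in KO against WT and Prdx5 and Prdx6 in KO against C247S KI are the 3 filled markers, and all 7 markers of C247S KI against WT lie below 0.

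All 7 members had a lower mean in livers with the C247S change than in wild-type livers, but no member passed the test. For this comparison edgeR called 0 of 7 members, DESeq2 also called 0, and 0 had an unadjusted p under 0.05. The background was also low, with 0.0862% of all genes called (0.0647% higher and 0.0216% lower) and 9.85% at an unadjusted p under 0.05. The log2 difference was negative for all 7 members, from -0.26 (Prdx1, 526 ± 122 against 629 ± 138 CPM) to -0.09 (Prdx4, 56.6 ± 21.2 against 60.3 ± 19.0). Their median was -0.23, beside 0.00 over all genes. Prdx5 (184 ± 28.2 against 217 ± 39.5 CPM) and Prdx6 (426 ± 67.6 against 503 ± 52.9) both differed by -0.24, and Srxn1 (37.4 ± 8.59 against 43.9 ± 9.27) differed by -0.23, with SEs of 0.15, 0.13 and 0.16. Prdx2 (105 ± 22.3 CPM) differed by -0.16 and Prdx3 (82.2 ± 7.31 CPM) by -0.15. The libraries of the 2 groups overlapped for every member, while 1.32% of all genes did not overlap, and edgeR's adjusted p ran from 0.560 to 0.914. The sign of Prdx4 turned without C247S KI 3, C247S KI 5 and WT 1 together (0.028).

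Prdx5 and Prdx6 were higher in KO than in C247S KI livers. Of the 7 members, 2 rose and 0 fell, against 10.3% of all genes called (4.41% higher and 5.85% lower). The same 2 were the members with an unadjusted p under 0.05, against 27% of all genes. Prdx6 was 420.2, 487.8, 381.7, 499.5 and 342.0 CPM in C247S KI libraries 1 to 5. All 5 lay below the lowest KO library (563.7 CPM). The mean rose from 426 ± 67.6 to 624 ± 58.7 CPM (SD, n = 5 each), by 0.55 on the log2 scale or 1.46-fold (SE 0.13; edgeR adjusted p = 0.0132). That call held in 15 of 15 fits without 1 library, and it held at 0.41 (edgeR adjusted p = 0.0381) when C247S KI 3, C247S KI 5 and WT 1 were left out together. It was lost, at 0.49 with an edgeR adjusted p of 0.0525, when WT 1, C247S KI 5 and KO 5 were left out, an alternative chosen after seeing the data.

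Prdx5 was 169.4, 190.8, 216.4, 198.6 and 143.4 CPM in C247S KI libraries 1 to 5 and 222.6, 292.2, 239.2, 312.2 and 248.2 CPM in KO libraries 1 to 5. All KO libraries lay above all C247S KI libraries, with 216.4 and 222.6 CPM as the nearest pair. Groups did not overlap in CPM for 2 of 7 members, Prdx5 and Prdx6, both with KO above, against 9.67% of all genes (4.73% with KO above). Prdx5 rose by 0.52 or 1.43-fold (SE 0.15; edgeR adjusted p = 0.0343). The call was lost in 7 of 15 fits without 1 library (C247S KI 1, 2 or 5 or KO 2, 3, 4 or 5; highest edgeR adjusted p = 0.0954), and leaving out C247S KI 3, C247S KI 5 and WT 1 together gave a difference of 0.49 (edgeR adjusted p = 0.0526). With WT 1, C247S KI 5 and KO 5 left out it was 0.45 (edgeR adjusted p = 0.107). Prdx5 overlaps Trmt112 on the opposite strand, a gene for a methyltransferase activator with 12.5% of the counts of Prdx5, and the strand setting of the counting is not given. Trmt112 rose too, from 23.5 to 32.9 CPM (log2 difference 0.49; edgeR adjusted p = 0.0234), so reads of the 2 genes may be shared and the value of Prdx5 is uncertain to that extent.

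The remaining members overlapped between KO and C247S KI in CPM. The log2 difference was 0.30 for Prdx1 (edgeR adjusted p = 0.317), 0.12 for Prdx2 (0.673), -0.11 for Prdx3 (0.574), -0.20 for Prdx4 (0.616) and -0.32 for Srxn1 (0.206). The members' median was 0.12, beside -0.03 over all genes. KO against WT and KO against C247S KI share the same 5 KO libraries, so their values are given side by side only. For Prdx6 these were 0.31 and 0.55, for Prdx5 0.28 and 0.52, and for Srxn1 -0.55 and -0.32.

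Single libraries moved the peroxiredoxins together. WT 5 was the lowest WT library and C247S KI 5 the lowest C247S KI library for 6 of 6 peroxiredoxins, and these libraries had the highest TMM factors of their groups (1.08 and 1.25). WT 1 and C247S KI 3, with the lowest TMM factors of their groups (0.936 and 0.861), were each the highest for 4 of 6. Srxn1 did not follow this order, since C247S KI 5 was its highest C247S KI library and WT 1 its lowest WT library. On the TPM scale, which carries no TMM factor, Prdx1 lay between 530 and 603 in C247S KI, where it ran from 357 to 692 in CPM. On that scale too KO lay above C247S KI for Prdx5 (366 to 420 against 266 to 308 TPM) and Prdx6 (662 to 692 against 342 to 584 TPM). Prdx1 overlapped between these groups in CPM but narrowly did not in TPM (604 to 772 in KO against 530 to 603). Prdx3 overlapped between KO and WT in CPM but not in TPM (71.9 to 76.9 in KO against 80.6 to 105.6 in WT). These TPM differences were not tested. The part of the TMM factors in the CPM spread was not tested.

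The transcripts behind the gene sums differed in kind. For Prdx6, the transcript ENSMUST00000192639, annotated for nonsense-mediated decay, held 59.9% of the counts and the protein-coding ENSMUST00000071718 held 27.5%. Protein-coding transcripts made up 24.6% to 37.0% of the Prdx6 counts in a library. Estimated counts divide reads shared by overlapping transcripts, so these shares are model estimates. Of the members' transcripts, ENSMUST00000192639 was the only one called in any comparison, at 386 ± 56.1 CPM in KO and 246 ± 40.9 in C247S KI (log2 difference 0.65, SE 0.15; edgeR adjusted p = 0.0423 over all transcripts, of which 1.59% were called, with 0.641% in KO against WT and 0.00614% in C247S KI against WT). ENSMUST00000071718 was at 165 ± 8.19 and 123 ± 18.6 CPM (log2 difference 0.43; edgeR adjusted p = 0.109). With protein-coding transcripts only, the Prdx6 gene difference was 0.42 (edgeR adjusted p = 0.0347). For Prdx5, the protein-coding ENSMUST00000025904 held 65.1% and ENSMUST00000149261 held 22.1%, with log2 differences of 0.44 and 0.57 in KO against C247S KI (edgeR adjusted p = 0.160 and 0.1001). Srxn1 had 99.3% of its counts in ENSMUST00000041500, and Prdx3 had a single transcript. Prdx1 had 73.3% in ENSMUST00000135573 and Prdx2 57.5% in ENSMUST00000005292. Near copies took few counts, with 35 in 3 pseudogenes of Prdx1 beside 183047 of Prdx1, 3 in copies of Prdx2, and 9 in Prdx6b. Prdx2, with 34099 counts, overlaps Junb (14369 counts) and Rnaseh2a (5384 counts) on the opposite strand, but the search that found 360 bases shared by Prdx5 and Trmt112 listed no stretch shared with either of them. That search kept only long matches of high identity, so a shorter shared stretch could have been missed.

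**Figure D4:**
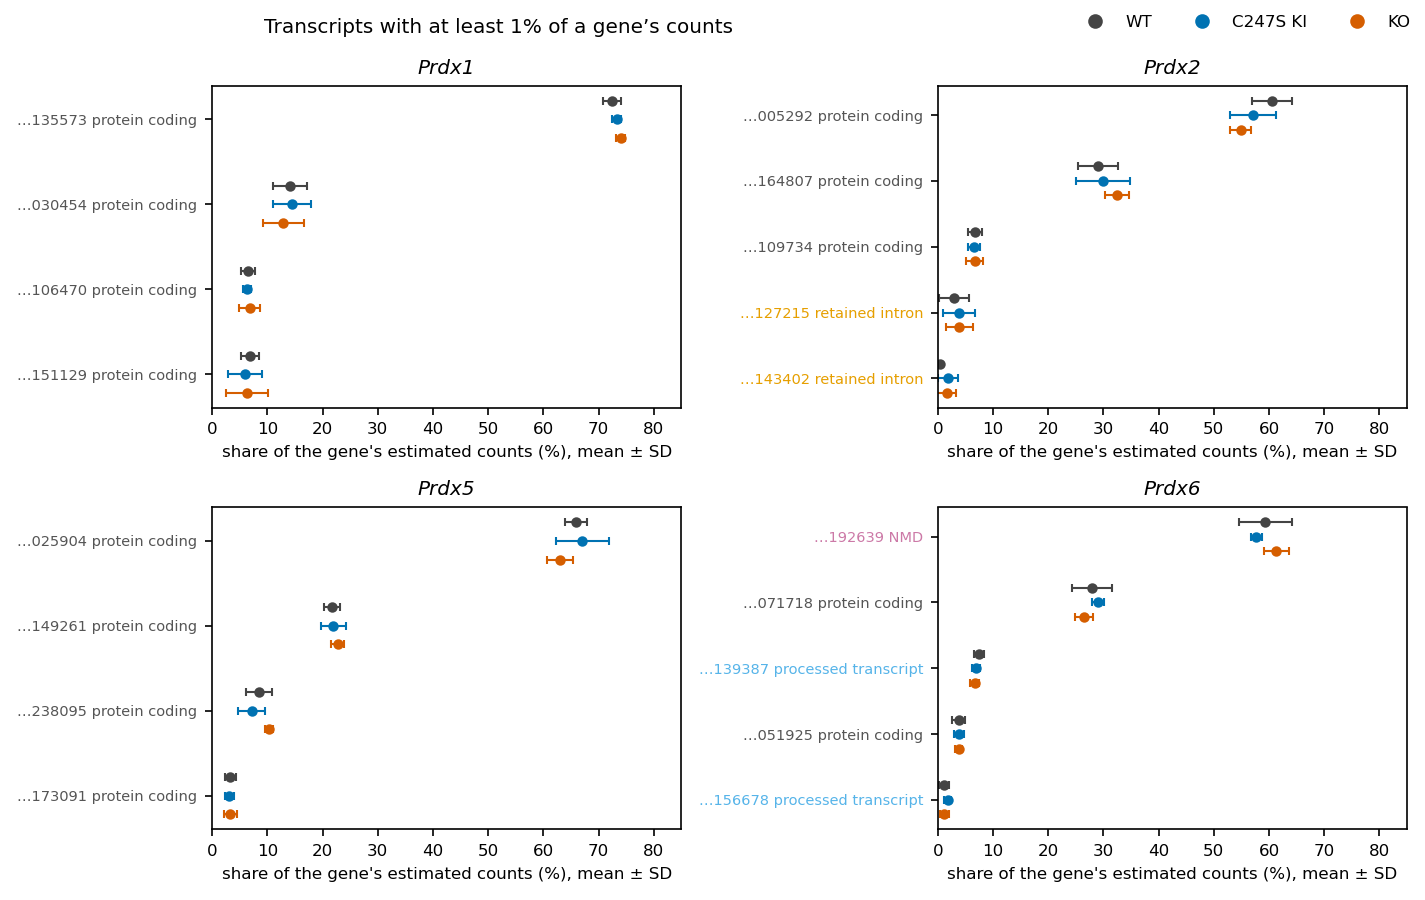
Share of each gene's counts held by its transcripts, in percent, for Prdx1, Prdx2, Prdx5 and Prdx6 and transcripts with at least 1%, as group mean ± SD (n = 5 libraries per group), each labelled by the last digits of its identifier and its annotation (NMD, nonsense-mediated decay). The decay-annotated transcript holds more than every other Prdx6 transcript in all 3 groups.

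The enzymes that hand electrons to the peroxiredoxins were compared next. Of 7 cytosolic thioredoxin pathway genes, 0 rose and 1 fell in KO against WT, and that was Txnip itself. Txn1, the thioredoxin that reduces Prdx1 and Prdx2, was at 188 ± 32.2, 143 ± 11.1 and 176 ± 29.0 CPM in WT, C247S KI and KO. Its difference of -0.40 in C247S KI against WT had an edgeR adjusted p of 0.364. Txnrd1, its reductase, was at 105 ± 2.61, 112 ± 18.3 and 105 ± 6.26 CPM.

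Of 6 genes of the mitochondrial thioredoxin pathway and NADPH supply, 2 rose in KO against both other groups and 0 fell. Over all genes, 2.56% were called higher in KO against WT and 4.41% in KO against C247S KI. Txnrd2, the mitochondrial thioredoxin reductase behind Prdx3, rose from 32.0 ± 1.69 CPM in WT to 40.8 ± 4.40 in KO (log2 difference 0.35, SE 0.09; edgeR adjusted p = 0.0309), and it was 30.4 ± 2.23 in C247S KI. Nnt, the transhydrogenase that makes mitochondrial NADPH and is deleted in part in C57BL/6J mice, rose from 58.0 ± 6.72 to 120 ± 10.1 CPM (log2 difference 1.05, SE 0.14; edgeR adjusted p = 0.000724). Its level was 49.6 ± 11.4 CPM in C247S KI. The labels give no strain, so for Nnt a difference of strain or line cannot be told apart from the KO genotype. Txn2, which reduces Prdx3, was at 158 ± 26.3, 135 ± 24.7 and 167 ± 19.9 CPM and was not called.

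Over all genes, 4.19% were called lower in KO against WT. Of 11 genes of thiol oxidation in the endoplasmic reticulum, where Prdx4 works, 2 fell and 0 rose in that comparison. They were Ero1l, the oxidase that produces peroxide there (21.1 ± 3.05 to 15.6 ± 1.42 CPM; log2 difference -0.44, edgeR adjusted p = 0.0418), and Vkorc1l1, a reductase of that compartment (47.3 ± 2.09 to 37.7 ± 2.90 CPM; -0.33, edgeR adjusted p = 0.0343). Ero1l also fell in KO against C247S KI (-0.61). Among 7 tested genes of other peroxide and superoxide enzymes, Gpx1 was higher in KO than in C247S KI (1718 ± 333 against 1119 ± 209 CPM; log2 difference 0.62, edgeR adjusted p = 0.0366) and 0 were called against WT. The WT level of Gpx1 was 1739 ± 339 CPM, near that of KO (-0.02), and C247S KI lay below WT without a call (-0.64, edgeR adjusted p = 0.288). Among 5 partners of Prdx6, Gstp1, whose protein reactivates Prdx6 with glutathione, rose in KO against C247S KI (936 ± 472 to 1924 ± 235 CPM; 1.04, edgeR adjusted p = 0.0467). The WT level of Gstp1 was 998 ± 399 CPM, near that of C247S KI (-0.09 in C247S KI against WT). KO lay above WT without a call (0.95, edgeR adjusted p = 0.0800). The close copy Gstp2 could share the reads of Gstp1. Of 3 sestrins 0 were called.

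Genes of the NRF2 response, to which Srxn1 belongs, and the AP-1 subunits are given because of the motifs printed above. Of 15 NRF2 regulators and targets, 3 fell, 0 rose and 13 had a negative difference in KO against WT, with a median of -0.42. Over all genes the median was -0.01, 48.7% had a positive difference and 4.19% were called lower. Of the 13, Txnrd1 (-0.01), Gclm (-0.06) and Osgin1 (-0.07) lay near 0. Whether the list differed from all genes as a set was not tested. Those that fell were Nqo1, a quinone reductase (5.47 ± 1.02 to 3.29 ± 0.965 CPM; log2 difference -0.74, edgeR adjusted p = 0.0438), Hmox1, the haem oxygenase (19.9 ± 3.73 to 10.3 ± 3.08 CPM; -0.94, 0.0274), and Me1, the malic enzyme that also serves lipid synthesis (168 ± 61.2 to 57.1 ± 13.8 CPM; -1.56, 0.0196). Nfe2l2, the gene of NRF2, was at 46.1 ± 7.46 CPM in WT and 37.9 ± 2.94 in KO and was not called (-0.28; edgeR adjusted p = 0.347), nor was Keap1, its repressor, at 56.4 ± 7.01 and 62.7 ± 2.25 CPM. Hmox1 and Me1 also fell in KO against C247S KI, by 1.34 and 1.71, and 0 of the 15 were called in C247S KI against WT.

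Of 7 tested AP-1 subunit genes, 3 fell and 0 rose in KO against WT, beside 4.19% of all genes called lower. The signs in this list were mixed, with 3 positive and 4 negative differences. Jun (0.53), Junb (0.41) and Fos (0.09) had positive differences and Jund a negative one (-0.47), and none of them was called. Fosl2 fell from 22.8 ± 6.87 to 13.6 ± 3.10 CPM (log2 difference -0.74; edgeR adjusted p = 0.0330), and it fell against C247S KI as well (-0.89; edgeR adjusted p = 0.00946). Atf3 fell by 2.67 from a WT level that ran from 1.97 to 24.4 CPM. Fosb fell by 1.91 at low levels, with 0.414 to 1.74 CPM in WT and 0.203 to 0.370 CPM in KO. Whether the levels of these factors bear on Srxn1 was not tested.

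**Figure D5:**
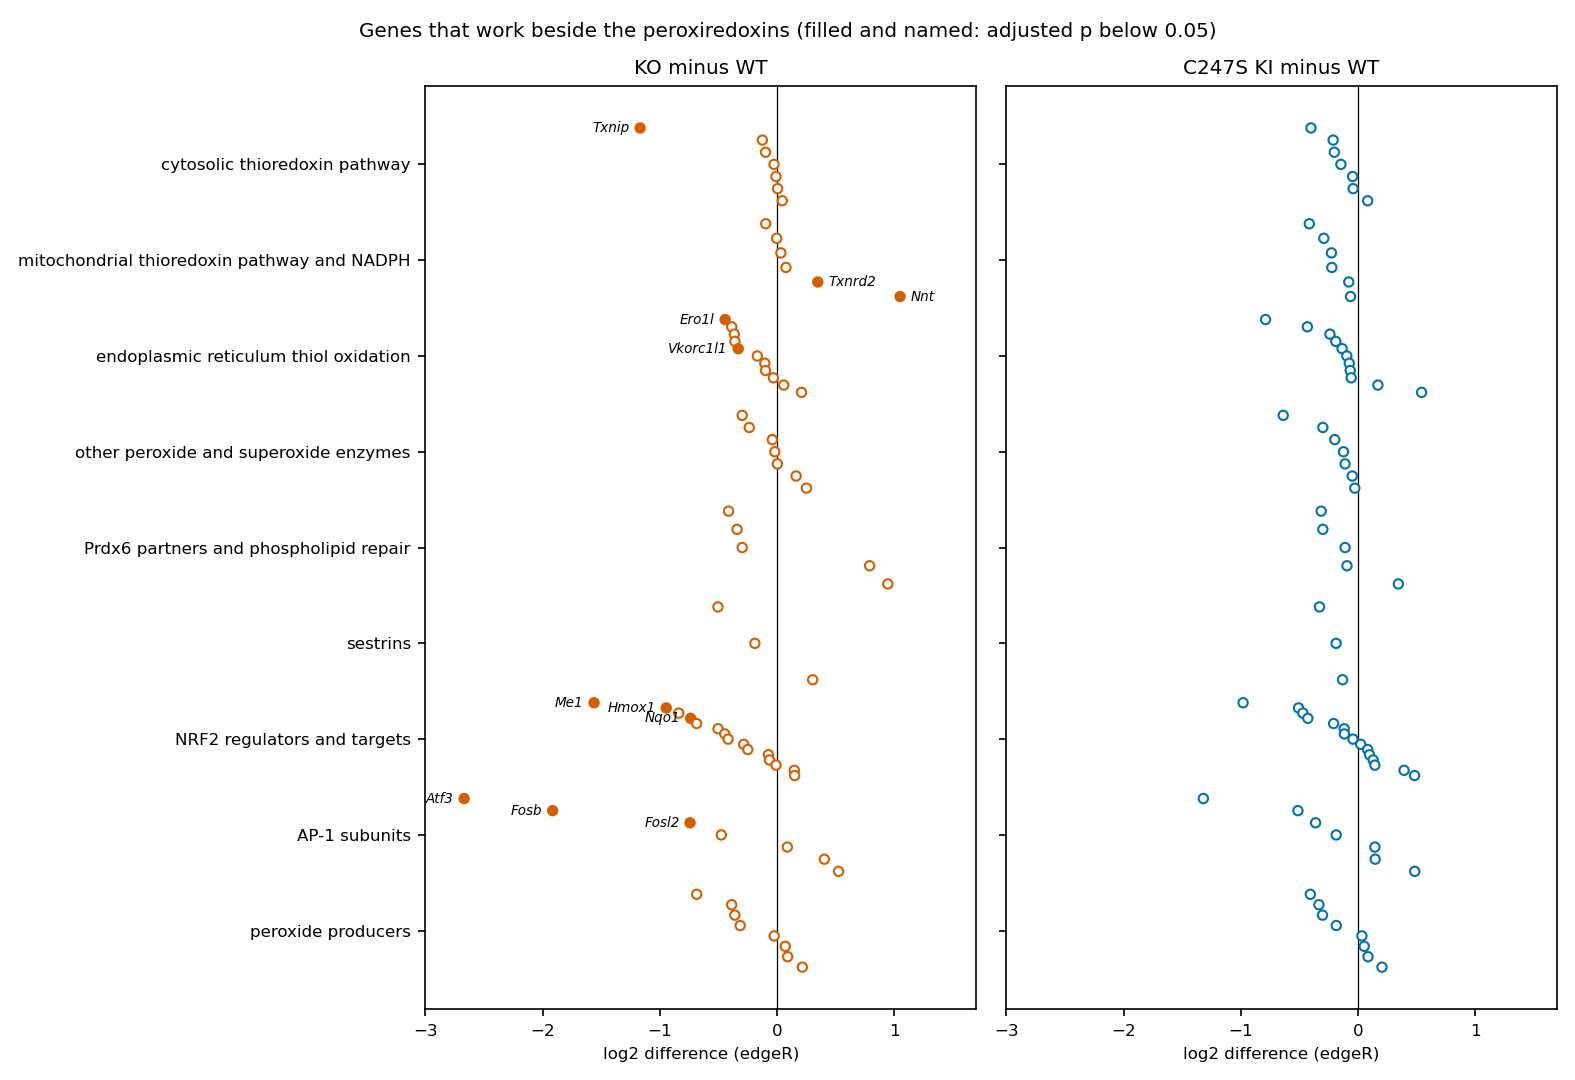
Log2 difference of every tested gene of the partner lists in KO against WT (left) and C247S KI against WT (right), 1 band per list, with filled and named points for an edgeR adjusted p below 0.05. Txnrd2 and Nnt are filled to the right of 0 and 13 of 15 NRF2 genes lie to the left of 0 in KO against WT, and 0 points are filled in C247S KI against WT.

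Markers of liver cell types were summed beside these results. In bulk tissue, fewer cells of a type and less RNA per cell cannot be told apart. In KO against WT, hepatocyte markers held 1 call of 9 (Alb, lower), stellate and fibroblast markers 1 of 8 (Col3a1, lower, with summed levels of 173 to 406 CPM in KO and 421 to 503 in WT), sinusoidal endothelial markers 2 of 9 (Lyve1 and Pecam1, lower), and T, NK and B cell markers 1 of 5 tested (Ms4a1, lower). Kupffer cell and macrophage markers held 0 calls of 12, with a summed level of 347 to 612 CPM for WT, 209 to 372 CPM for C247S KI and 222 to 504 CPM for KO. All 12 had a negative difference in KO against WT (median log2 difference -0.25). So did all 8 stellate and fibroblast markers (-0.38) and all 5 tested T, NK and B cell markers (-0.94). Hepatocyte markers had 5 positive and 4 negative differences, and sinusoidal endothelial markers had 4 positive and 5 negative (median -0.045). Over all genes 48.7% were positive and 4.19% were called lower. Erythroid markers, of cells rich in Prdx2 protein, ran from 559 to 1956 CPM in WT libraries, from 714 to 3276 CPM in C247S KI and from 1237 to 3768 CPM in KO. In KO against C247S KI, beside the rises of Prdx5 and Prdx6, hepatocyte markers held 1 higher (Cyp2e1) and 2 lower (Alb and Fgb). Cholangiocyte markers held 2 lower (Sox9 and Spp1), endothelial markers 1 lower (Lyve1) and erythroid markers 1 lower (Slc4a1). By sign, however, 6 of 9 endothelial (median log2 difference 0.33) and 5 of 8 erythroid markers (0.27) were positive. So were 11 of 12 Kupffer cell and macrophage markers (0.47), with 0 called. All 5 tested cholangiocyte markers (-0.97) and 6 of 8 stellate and fibroblast markers (-0.25) were negative. Over all genes there, 46.7% were positive, 4.41% were called higher and 5.85% lower. Neutrophil markers held 0 calls of 6 in every comparison. Of the adipocyte markers, Cfd and Cidea fell in KO against both other groups, and Adipoq had 0 to 6 counts and Plin1 0 to 5 counts in a library. In C247S KI against WT, where all 7 members had a lower mean, 12 of 12 Kupffer cell and macrophage markers (median log2 difference -0.71) and 8 of 9 endothelial markers (-0.41) had a negative difference too. Over all genes, 50.4% had a positive difference there. In that comparison 5 of 5 tested cholangiocyte markers (0.80) had a positive one, hepatocyte markers had a median of 0.00, and 0 markers of any list were called. The part of these markers in the members' differences was not tested.

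The genes whose log2 CPM followed a member most closely over the 15 libraries are given as a description, with Pearson correlations among 12989 genes that share libraries, depth and scaling factors. Srxn1 was followed most closely by Gsta1, a glutathione S-transferase (0.935), Timp1, an inhibitor of matrix metalloproteinases (0.912), and Anxa5, an annexin (0.904). Prdx5 was followed by Mrps18a, a mitochondrial ribosomal protein (0.976), Naa38 (0.971) and Hint2 (0.970), and Prdx6 by Acaa2, a mitochondrial thiolase of fatty acid oxidation (0.978), Akip1 (0.969) and Macrod1 (0.957). Prdx1 was followed by Ndufa11 and Cox4i1, subunits of the respiratory chain (both 0.973), and Sdhaf4 (0.972), and Prdx2 by Lamtor1 (0.972), Tspo (0.959) and Rtraf (0.958). Within groups, the correlation with the nearest gene was 0.937 for Srxn1, 0.970 for Prdx5 and 0.960 for Prdx6.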

How the data were processed

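Bulk RNA sequencing of mouse liver gave 15 libraries, grouped by title. The authors deposited estimated counts per transcript as whole numbers, made with Trimmomatic 0.39 and kallisto 0.50.1, and DESeq2 and the mm10 build are also named, per the submitters' processing notes. The transcript set and the strand setting are not given in the sources used here. Transcripts were matched by identifier to GENCODE M21 (98.64%), and unmatched ones (0.366% to 0.459% of counts) stayed out. Counts were summed per symbol. All 15 libraries entered one edgeR 4.0.16 fit in R 4.3.3 (TMM, filterByExpr with a minimum count of 10 and a minimum total of 15, quasi-likelihood test, Benjamini-Hochberg adjusted p below 0.05 over all genes). SE is the log2 fold change over the root of F. Exact permutation tests and correlations used log2 CPM (prior count 2). TPM used annotated transcript lengths. The fit was also run on simulated counts with planted changes, drawn gene by gene from its own dispersions. In such counts the genes of a library do not move together beyond its depth and TMM factor, so such shifts were not covered.

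The members and gene lists were chosen with earlier results of these data known. Named genes were Txnip, all members, every called partner gene, and direct donors or regulators of the members. A result of another partner list is not reported here. For members with a call and for 2 others of highest level, the 3 best correlated genes were named. Alternatives were DESeq2 1.42.0, limma-voom (limma 3.58.1), other factors, no filter, only the groups compared, a replicate block, protein-coding transcripts only, and left-out libraries. In all 30 same-group pairs the counts differed beyond sampling noise (chi-square of 22.8 to 368.5 for each degree of freedom), and no libraries were merged.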

Additional observations from a re-analysis of the deposited data

Results flagged for a closer look

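Srxn1 in KO library 4, at 35.8 CPM, stood apart from the other KO libraries, which lay between 27.6 and 29.1 CPM. Its gap to the nearest library took 0.816 of the range of the group, above Dixon's 95% value of 0.71 for 5 libraries. It was 1 of 21 groups of 5 values examined, and chance alone marks about 1 in 20 such groups.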

How the results depend on the processing

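The fall of Srxn1 in KO against WT missed the threshold under limma-voom (-0.53; adjusted p = 0.0588), upper-quartile factors (-0.55; 0.0516), no filter (-0.54; 0.0603), the replicate block (-0.54; 0.0747) and protein-coding transcripts only (-0.55; 0.0559), so the members called were 0 there. It kept its call under DESeq2, RLE factors and a fit of only the 2 groups. Without 1 library it ran from -0.64 to -0.43, with 0 to 1 members called. For KO against C247S KI, leaving out WT 1, C247S KI 3 and C247S KI 5 gave 1 member called, Prdx6, with the call of Prdx5 (0.49) lost, and leaving out WT 1, C247S KI 5 and KO 5, chosen after seeing the data, gave 0 (Prdx5 0.45, Prdx6 0.49) and 788 genes called. Without 1 library, Prdx5 ran from 0.44 to 0.58, members called from 1 to 2 and genes called from 784 to 2272. Signs turned only for differences that were not called. With the first set left out Prdx4 was 0.028 in C247S KI against WT and Prdx2 0.038 in KO against WT, and with the second set 0.23 and 0.040. Without 1 library, Prdx4 ran from -0.31 to 0.10 in C247S KI against WT and from -0.34 to 0.019 in KO against C247S KI, and in KO against WT Prdx1 ran from -0.062 to 0.12 and Prdx2 from -0.14 to 0.044. Genes called in KO against WT were 939, but 1493 with DESeq2, 1542 with the first set left out and 521 to 1259 without 1 library. In C247S KI against WT they were 12, but 65 with DESeq2, 20 with no filter, 6 with only the 2 groups, 6 with the replicate block and 4 to 24 without 1 library. The labels give the replicate numbers no meaning, and not every pair sharing a number correlated above 0.1, so they were not taken to pair the samples. Of 5 such pairs, 1 passed 0.1 in KO against WT (-0.141 to 0.219), 0 in KO against C247S KI (-0.0695 to 0.0918) and 3 in C247S KI against WT (0.0060 to 0.381, all positive), where 4 of 10 libraries correlated best with their own number. With the replicate block, Prdx6 was -0.25 in C247S KI against WT, with an unadjusted p of 0.0452 and an edgeR adjusted p of 0.419. The causes of these shifts were not tested. Among 21 group levels, all 21 moved by less than 1 SD with RLE factors.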
